A study of Mus musculus with 12 samples.

Results

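The autophagy machinery genes described here are the 36 mouse genes that build, mark and load the autophagosome: the initiation complex, the class III phosphatidylinositol 3-kinase complex, the lipid transfer proteins and phosphoinositide effectors, the conjugation enzymes, the ATG8 family and 5 cargo receptors. They were chosen by name, with earlier results of these data known. Of the 36, 33 had a probe set that the platform annotation ties to 1 gene, and all 33 were among the 12961 genes tested. Becn1 and Atg4d were read only by probe sets shared with other genes, and Optn has no entry in the annotation used, so these 3 have no values here. Each of the 33 is represented by the probe set with the highest mean over the arrays.

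RNA was profiled on 12 Affymetrix mouse whole-transcript arrays of sorted primary B lymphoma cells, taken from C57BL/6J x BALB/c mice carrying the l-MYC transgene and the B1-8f allele, a rearranged immunoglobulin heavy chain gene flanked by sites for Cre recombinase. The cultures had been transduced with TAT-Cre, a cell-permeable Cre, which removes the B cell receptor (BCR), and cells with and without the receptor were grown together for 4 days before sorting. The 3 tumours, numbered 2567, 2646 and 2676, each gave 1 array in each of 4 groups. BCR-positive, BCR-negative and BCR-independent cells were left untreated, and the fourth group is BCR-negative cells treated with CHIR99021, which inhibits the kinase GSK3. The BCR-independent cells are BCR-negative cells that had been kept in culture for a long time and were no longer outcompeted. Each tumour is represented there by 1 clone, clone 8 of tumour 2567, clone 7 of tumour 2646 and clone 1 of tumour 2676. All 4 groups share the MYC transgene, so no group shows these genes without it, and the sources used here do not give the dose of CHIR99021. A mark, (2), ends the titles of 4 arrays, the BCR-positive and the untreated BCR-negative ones from tumours 2646 and 2676, and its meaning is not stated. The labels do not say which of a tumour's arrays came from the same culture, so the p-values measure the spread between these arrays.

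Autophagy is the pathway by which a cell encloses part of its cytoplasm in a membrane and delivers it to the lysosome. The ULK kinase complex starts the process, the class III phosphatidylinositol 3-kinase complex marks the site with phosphatidylinositol 3-phosphate (PI3P), and WIPI proteins and ATG2 lipid transfer proteins bind and extend the growing membrane. The enzymes ATG7 and ATG3 and the ATG12-ATG5-ATG16L1 assembly, which ATG10 helps to form, attach ATG8 proteins (the LC3 and GABARAP families) to lipid. Cargo receptors bind ATG8 proteins through a short motif. The pathway is controlled largely by protein modification, by the nutrient sensor mTORC1 and by AMPK, and in part by transcription factors of the TFEB and FOXO families. In B cells autophagy is known for its part in the survival of plasma cells and memory B cells. Levels of messenger RNA, which these arrays measure, do not report the flux through the pathway.

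All values are the deposited log2 signals, and changes are differences of log2 signals, so that a difference of -1 is a signal lower by a factor of 2. Array medians lay between 3.32 and 3.44 and the 40th percentiles between 3.06 and 3.16. The heavy chain segment Ighv1-72, which checks the sort, read 9.62 in BCR-positive, 6.44 in BCR-negative, 5.77 in treated and 4.04 in BCR-independent cells (group means, n = 3), although near-identical heavy chain segments may add to it. Axin2, a transcriptional target of the Wnt pathway that GSK3 restrains, differed by 0.070 (SE 0.084, adjusted p = 0.772) between treated and untreated BCR-negative cells. It read 3.66 and 3.59 there, not far above the array medians, which limits what its difference can show. Of 8 B cell markers, 7 had a probe set and 5 exceeded the 75th percentile on every array, and none of the T cell, macrophage, stromal or granulocyte markers did. Of 4 plasma cell markers, Irf4 exceeded it on 12 arrays, Sdc1 on 11, and Prdm1 and Jchain on 0. The mean of the B cell markers was 7.70 in BCR-positive, 7.54 in BCR-negative, 7.12 in treated and 7.38 in BCR-independent cells. Within that list Ms4a1 was above the 40th percentile on 1 array. Blk read 5.39 in BCR-positive, 4.36 in BCR-negative, 3.79 in treated and 3.59 in BCR-independent cells. In untreated and treated BCR-negative cells the transcription factor Ebf1 read 9.0 and 7.79, and Pax5 read 8.54 and 8.085. Cd79b read 9.505 and 9.088, Cd22 8.599 and 8.228, and Cd79a 10.08 and 10.13. Of the 6 B cell markers tested, 5 were lower in treated cells and 1, Cd79a, was higher. Irf4, from the plasma cell list, read 8.45 and 7.33 in these groups. The means of the T cell, macrophage, stromal and granulocyte lists lay between 2.97 and 3.43 in every group. The part of the B cell marker difference in the results below was not tested.

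Values in every array are given in the order of tumours 2567, 2646 and 2676. A gene is called where limma's Benjamini-Hochberg adjusted p over all 12961 genes was under 0.05, in a fit of group and tumour over all 12 arrays. In sorted cells measured in bulk, fewer cells that express a gene and less RNA per cell cannot be told apart.

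The comparison of CHIR99021-treated with untreated BCR-negative cells asks what inhibition of GSK3 changes in cells that have lost the receptor. Part of the machinery was lower in treated cells: of 33 members, 7 fell and 0 rose. The 7 were Atg13 and Rb1cc1 of the initiation complex, Atg2a and Wdr45 of the membrane-building step, the ATG8 gene Map1lc3b, and the cargo receptors Tax1bp1 and Nbr1. Their changes ran from -0.58 for Atg2a to -0.97 for Nbr1. Over all genes tested, 1.91% were called in this comparison and 0.849% were called lower, 110 of 248 called genes. After cyclic loess normalization of the deposited values 132 of 236 called genes were lower, and the same 7 members were called. At an unadjusted p under 0.05, 12 members were lower (6.2% of all genes) and 1, Atg3, was higher (10.4% of all genes). In 10 members every treated array lay below every untreated array (4.68% of all genes), and in 1, again Atg3, every treated array lay above (5.9% of all genes).

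The 33 members had a median change of -0.18, against 0.026 over all genes, with 23 lower and 10 higher. That median was -0.0081 in tumour 2567, -0.30 in tumour 2646 and -0.23 in tumour 2676. Once the title mark was a term it was -0.042. The 7 called members, picked by the fit of these same arrays, were lower in each tumour. All 7 lost their call when tumour 2646 or tumour 2676 was left out, only Nbr1 kept it without tumour 2567, and none kept it without the tumour term, while with only the 2 groups in the fit Tax1bp1 and Wdr45 did. With the title mark as a term none kept it, and in tumours 2646 and 2676, where the untreated arrays carry the mark and the treated ones do not, treatment and mark cannot be told apart. Calls were lost over all genes too, from 248 to 1 without tumour 2646, 10 without tumour 2676 and 17 without tumour 2567. The number was 12 without the tumour term, 109 with only the 2 groups and 32 with the title mark.

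**Figure D1:**
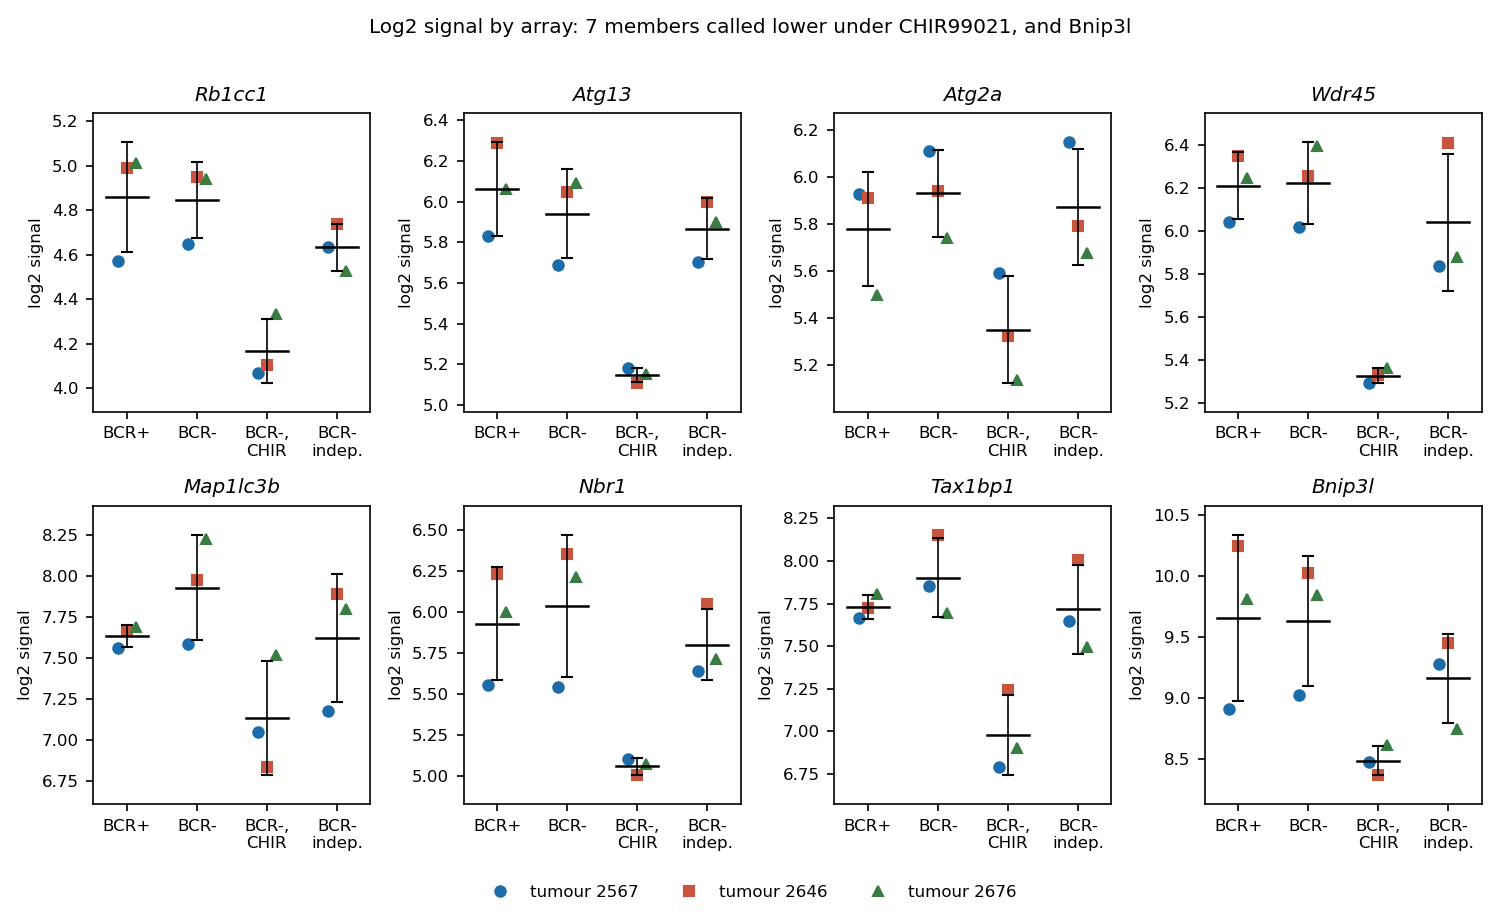
Log2 signal (vertical axis, a separate range in each panel) of Rb1cc1, Atg13, Atg2a, Wdr45, Map1lc3b, Nbr1, Tax1bp1 and Bnip3l on each of the 12 arrays, by group (BCR+, untreated BCR-positive; BCR-, untreated BCR-negative; CHIR, BCR-negative with CHIR99021; indep., BCR-independent). Symbols mark the tumours, horizontal bars the group means and vertical bars ± 1 SD (n = 3); in every panel the 3 treated arrays lie below the 3 untreated BCR-negative arrays, and Atg13 and Wdr45 have the narrowest treated groups, at 5.15 ± 0.036 and 5.33 ± 0.034.

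The stretches of genome that precede these genes are shown for the 3 members with the smallest p in this comparison, because these genes fell together, and for Atg3, the 1 member whose treated arrays all lay higher. Each runs from 250 bases before to 50 bases after the annotated start of transcription, read 5′ to 3′ on the gene's strand from RefSeq (GRCm38.p6). The Tax1bp1 window printed is chr6:52713479-52713778 (plus strand), the Atg13 window chr2:91710543-91710842 (minus strand), the Wdr45 window chrX:7722677-7722976 (plus strand) and the Atg3 window chr16:45158579-45158878 (plus strand). A second Tax1bp1 window, chr6:52713915-52714214 (plus strand), is not printed. Atg3 was not called, and its window was not among those planned for printing. Capitals mark CACGTG, the palindromic E-box that TFEB family factors and MYC are known to bind.
Tax1bp1: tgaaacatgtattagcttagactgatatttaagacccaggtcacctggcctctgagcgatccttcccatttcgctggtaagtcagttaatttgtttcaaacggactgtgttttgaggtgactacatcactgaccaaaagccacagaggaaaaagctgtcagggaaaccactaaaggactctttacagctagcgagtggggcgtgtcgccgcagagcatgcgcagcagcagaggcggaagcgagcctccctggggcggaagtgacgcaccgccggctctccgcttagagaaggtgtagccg
Atg13: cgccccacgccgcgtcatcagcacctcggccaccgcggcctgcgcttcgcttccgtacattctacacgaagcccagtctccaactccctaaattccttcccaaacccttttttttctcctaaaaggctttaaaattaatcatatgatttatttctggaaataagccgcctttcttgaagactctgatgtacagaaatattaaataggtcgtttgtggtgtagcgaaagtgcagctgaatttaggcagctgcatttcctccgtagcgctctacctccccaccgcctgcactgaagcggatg
Wdr45: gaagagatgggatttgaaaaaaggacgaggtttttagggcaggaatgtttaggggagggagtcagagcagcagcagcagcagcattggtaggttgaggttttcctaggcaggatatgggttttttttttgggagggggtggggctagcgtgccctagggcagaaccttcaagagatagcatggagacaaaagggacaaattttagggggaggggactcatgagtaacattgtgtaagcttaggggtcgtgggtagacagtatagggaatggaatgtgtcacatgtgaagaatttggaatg
Atg3: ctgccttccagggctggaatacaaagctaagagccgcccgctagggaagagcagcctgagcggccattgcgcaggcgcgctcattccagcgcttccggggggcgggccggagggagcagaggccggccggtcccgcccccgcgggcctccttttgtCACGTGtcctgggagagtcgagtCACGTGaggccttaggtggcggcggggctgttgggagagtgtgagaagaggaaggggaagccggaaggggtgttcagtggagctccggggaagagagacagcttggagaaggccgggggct

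Windows were found for 29 of the 36 members, 33 in all. CACGTG was present in 4 of the 33 windows (12.1%), those of Atg3, Atg5, Atg7 and Atg14, and in 7.15% of all 32851 windows of the same length. Counted from the start of transcription, the first base of the E-box lay at -94 and -71 in Atg3, at -132 in Atg7, at -14 in Atg5 and at -1 in Atg14. TGTTTAC, a forkhead motif of the FOXO family, was in 0 of 33 member windows and in 3.65% of all windows, and TGATGNAA (N, any base), a motif of ATF4 and its partners, was in 0 and in 3.97%. The windows compared differ in base composition, which these shares do not adjust for. Member windows had a median of 59.3% G and C and of 19 CG pairs, against 52.7% and 7 over all windows. Both strands were searched, and the motifs do not overlap in the windows printed. The 8 windows of 6 of the called members (all but Rb1cc1) held 0 of the 3 motifs, which says only that these letters are not in these windows. Of the 4 genes with an E-box, Atg3, Atg5, Atg7 and Atg14 differed by 0.22, -0.037, -0.010 and -0.093 under CHIR99021.

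The initiation complex had 4 measured members, and Atg13 and Rb1cc1 were lower under CHIR99021 while the kinase genes Ulk1 and Ulk2 were not called. Atg13 encodes the adaptor that mTORC1 phosphorylates and that holds the complex together. Its signal was 5.83, 6.29 and 6.06 in BCR-positive, 5.69, 6.05 and 6.09 in BCR-negative, 5.18, 5.11 and 5.15 in treated and 5.70, 6.00 and 5.90 in BCR-independent cells. The 3 treated arrays lay within a narrow band below the 9 others. The change from untreated BCR-negative cells was -0.79 (SE 0.11, adjusted p = 0.0226), with -0.51, -0.94 and -0.94 in the tumours.

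Rb1cc1 encodes FIP200, the scaffold of the complex. It read 4.57, 4.99 and 5.01 in BCR-positive, 4.65, 4.95 and 4.94 in BCR-negative, 4.07, 4.10 and 4.33 in treated and 4.63, 4.74 and 4.53 in BCR-independent cells. Again all treated arrays were below the 9 others, and the change was -0.68 (SE 0.11, adjusted p = 0.0322). Rb1cc1 is the called member whose 2 probe sets differ: the dimmer one differed by 0.11 (SE 0.14), and with the mean of both the change was -0.28 and the call was lost.

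Ulk1, the kinase that AMPK and mTORC1 phosphorylate, read 5.99, 5.61 and 6.01 in untreated and 6.30, 5.45 and 6.12 in treated BCR-negative cells, and the groups overlapped. Its difference of 0.084 (SE 0.19, adjusted p = 0.899) had both signs among the tumours. In BCR-positive and BCR-independent cells Ulk1 read 5.62, 6.03 and 6.24 and 5.78, 5.52 and 6.23, with tumour 2646 the lowest in 3 of the 4 groups. Ulk2, its paralogue, differed by -0.35 (SE 0.16, adjusted p = 0.315), and its treated arrays did not overlap the untreated ones. The 4 genes had a median change of -0.51.

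In the class III phosphatidylinositol 3-kinase complex 0 of 5 measured members were called by limma and 0 had an unadjusted p under 0.05. The median change was 0.04, with 3 higher and 2 lower. Pik3c3, the catalytic subunit, read 6.55, 6.76 and 6.39 in BCR-positive, 6.43, 6.74 and 6.48 in BCR-negative, 6.31, 6.41 and 6.17 in treated and 6.52, 6.65 and 7.14 in BCR-independent cells. Its treated arrays lay below the untreated BCR-negative ones without overlap, at a difference of -0.25 (SE 0.16, adjusted p = 0.495). Uvrag, which replaces Atg14 in the complex that acts on endosomes, showed the largest positive difference of the 33 members, 0.29 (SE 0.13, adjusted p = 0.322). Its arrays read 7.13, 7.32 and 7.15 in untreated and 7.17, 7.91 and 7.38 in treated BCR-negative cells, and tumour 2646 carried most of that difference. Without tumour 2646 it was 0.14, and 0.080 once the title mark was a term. In BCR-positive and BCR-independent cells Uvrag read 7.13, 7.24 and 7.34 and 7.08, 7.69 and 7.29.

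Ambra1, a regulator of the complex and of ULK1, read 5.42, 5.50 and 5.50 in BCR-positive, 5.53, 5.31 and 5.47 in BCR-negative, 5.61, 5.51 and 5.46 in treated and 5.82, 5.34 and 5.70 in BCR-independent cells, and the groups overlapped. The regulatory kinase-like subunit Pik3r4 and the targeting subunit Atg14 differed by 0.042 and -0.093 between treated and untreated BCR-negative cells. Becn1, the central scaffold of this complex, has no value of its own.

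All 6 lipid transfer and PI3P effector genes had negative differences under CHIR99021, with a median of -0.34, and Wdr45 and Atg2a fell. Wdr45 encodes WIPI4, a PI3P-binding protein that partners with ATG2. Its signal was 6.04, 6.35 and 6.24 in BCR-positive, 6.02, 6.26 and 6.39 in BCR-negative, 5.29, 5.33 and 5.36 in treated and 5.84, 6.41 and 5.88 in BCR-independent cells. The treated arrays spanned a small range below the 9 others, and the change of -0.90 (SE 0.13, adjusted p = 0.0232) was -0.73, -0.93 and -1.04 in the tumours.

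Atg2a, which moves lipid into the growing membrane, read 5.93, 5.91 and 5.50 in BCR-positive, 6.11, 5.94 and 5.74 in BCR-negative, 5.59, 5.33 and 5.14 in treated and 6.15, 5.79 and 5.68 in BCR-independent cells. In every group tumour 2567 was the highest and tumour 2676 the lowest, and the change under CHIR99021 was nearly the same in the 3, -0.52, -0.61 and -0.60. Fitted over them it was -0.58 (SE 0.086, adjusted p = 0.0268). Its paralogue Atg2b differed by -0.20 (SE 0.15, adjusted p = 0.587).

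Wipi1, a PI3P effector near the dim end of these arrays, exceeded the 40th percentile on 8 arrays. It read 3.26, 3.33 and 3.37 in BCR-positive, 3.08, 3.48 and 3.42 in BCR-negative, 3.07, 3.04 and 3.19 in treated and 3.07, 3.18 and 3.29 in BCR-independent cells, a difference of -0.23 (SE 0.092, adjusted p = 0.243) under CHIR99021. Wipi2, which recruits ATG16L1, and the scramblase gene Atg9a had differences of -0.34 (SE 0.12, adjusted p = 0.191) and -0.33 (SE 0.13, adjusted p = 0.249). In tumour 2567 Atg9a and Atg2b had positive differences, 0.037 and 0.099.

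Among the 9 measured conjugation genes 0 were called by limma, 1 had an unadjusted p under 0.05, and their median difference was -0.04. Atg3, the enzyme that transfers ATG8 proteins to phosphatidylethanolamine, was the 1 member whose treated arrays all lay above the untreated ones. It read 7.29, 7.31 and 7.44 in BCR-positive, 7.31, 7.40 and 7.45 in BCR-negative, 7.52, 7.67 and 7.63 in treated and 7.38, 7.53 and 7.40 in BCR-independent cells. The difference of 0.22 (SE 0.078, adjusted p = 0.188) had values of 0.21, 0.27 and 0.18 in the tumours.

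Atg7, the enzyme that activates both ATG8 proteins and ATG12, read 5.26, 5.33 and 5.30 in BCR-positive, 5.28, 5.27 and 5.39 in BCR-negative, 5.26, 5.34 and 5.30 in treated and 5.51, 5.61 and 5.47 in BCR-independent cells. Its 3 BCR-independent arrays lay above the 9 others. Between treated and untreated BCR-negative cells it differed by -0.010 (SE 0.077, adjusted p = 0.972).

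Atg4c, a protease that processes ATG8 proteins, read 3.40, 3.65 and 3.75 in BCR-positive, 3.44, 3.83 and 3.24 in BCR-negative, 3.48, 3.64 and 3.40 in treated and 3.39, 3.09 and 3.27 in BCR-independent cells. The treated and untreated BCR-negative arrays overlapped, with a difference of 0.0045 (SE 0.16, adjusted p = 0.993). The proteases Atg4a and Atg4b differed by -0.11 and -0.22, and the ATG12 branch genes Atg12, Atg5, Atg10 and Atg16l1 by -0.048, -0.037, -0.12 and 0.045. Treated arrays of these 6 genes all overlapped the untreated ones.

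The ATG8 family, whose members coat the membrane and bind cargo receptors, had 5 measured genes, and only Map1lc3b was called under CHIR99021. Map1lc3b, which encodes LC3B, read 7.56, 7.66 and 7.69 in BCR-positive, 7.59, 7.98 and 8.23 in BCR-negative, 7.05, 6.83 and 7.52 in treated and 7.18, 7.89 and 7.80 in BCR-independent cells. The treated arrays lay below all BCR-positive and all untreated BCR-negative arrays and overlapped the BCR-independent ones. Its change from untreated BCR-negative cells was -0.80 (SE 0.17, adjusted p = 0.04995), which is just under the threshold, and the tumours gave -0.54, -1.14 and -0.71. That call was also lost with no filter on dim probe sets.

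Gabarapl2 read 6.16, 6.10 and 6.13 in BCR-positive, 6.08, 6.37 and 6.52 in BCR-negative, 6.15, 5.98 and 6.03 in treated and 6.09, 6.31 and 6.39 in BCR-independent cells. Tumour 2567 went against the other two, and the difference under CHIR99021 was -0.27 (SE 0.12, adjusted p = 0.282). Gabarap differed by -0.18 (SE 0.13, adjusted p = 0.572), and its treated and untreated arrays overlapped.

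Map1lc3a and Gabarapl1 were dim, above the 40th percentile on 8 and 7 arrays. Map1lc3a, encoding LC3A, read 3.08, 3.28 and 3.17 in BCR-positive, 2.75, 3.10 and 3.12 in BCR-negative, 3.09, 3.19 and 3.21 in treated and 3.13, 2.94 and 3.17 in BCR-independent cells. These values are close to the percentile itself, so its difference of 0.17 (SE 0.11, adjusted p = 0.475) is between signals near background. Gabarapl1, a FOXO target in muscle, read 2.99, 3.70 and 3.04 in BCR-positive, 3.37, 3.57 and 3.06 in BCR-negative, 3.37, 4.21 and 3.12 in treated and 3.75, 3.31 and 3.10 in BCR-independent cells. The 1 treated array of tumour 2646 was the highest of the 12, and without that tumour the difference of 0.23 (SE 0.21, adjusted p = 0.673) was 0.026.

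**Figure D2:**
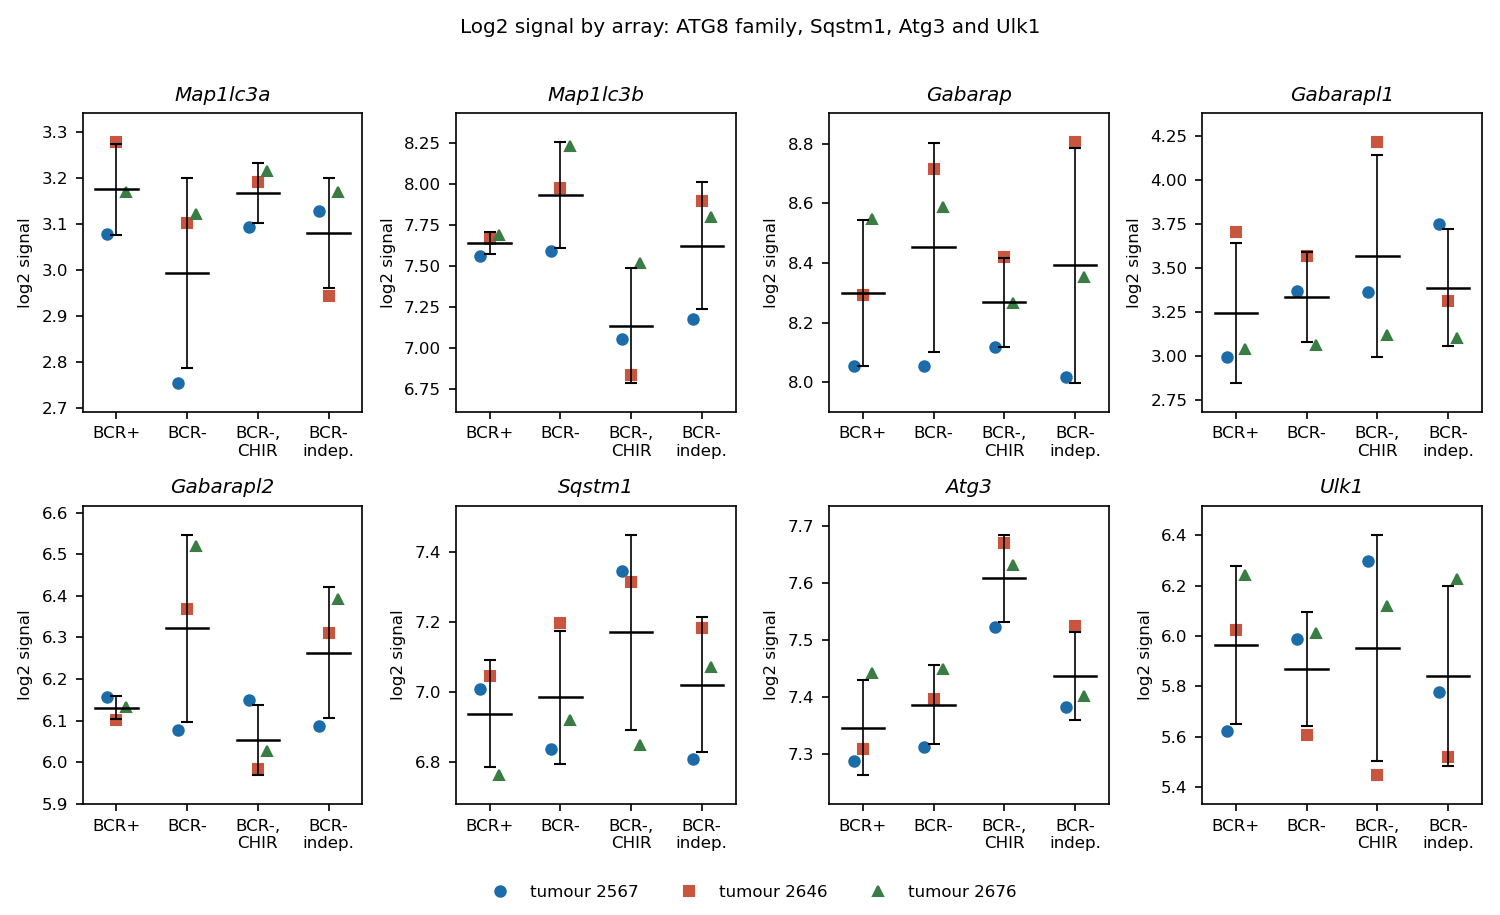
Log2 signal (vertical axis, a separate range in each panel) of the 5 ATG8 family genes and of Sqstm1, Atg3 and Ulk1 on each of the 12 arrays, by group (labels as BCR+, BCR-positive; BCR-, BCR-negative; CHIR, BCR-negative with CHIR99021; indep., BCR-independent). Symbols mark the tumours, horizontal bars the group means and vertical bars ± 1 SD (n = 3); Map1lc3b is lower in the treated group, at 7.13 ± 0.35 against 7.93 ± 0.32, Atg3 is at 7.61 ± 0.076 against 7.39 ± 0.069, and the treated and untreated arrays of the other panels overlap.

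The 4 measured cargo receptors split under CHIR99021, with a median of -0.95: Tax1bp1 and Nbr1 fell, Bnip3l had the largest negative difference of all members without being called, and Sqstm1 had a positive one. Tax1bp1 binds ubiquitinated cargo and has the smallest p of the members. It read 7.67, 7.72 and 7.81 in BCR-positive, 7.85, 8.15 and 7.70 in BCR-negative, 6.79, 7.24 and 6.90 in treated and 7.65, 8.01 and 7.50 in BCR-independent cells. The treated arrays lay below the 9 others, at a change of -0.92 (SE 0.12, adjusted p = 0.0157) and of -1.06, -0.91 and -0.80 in the tumours. It was the called member with its largest change in tumour 2567.

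Nbr1, a receptor for ubiquitinated proteins and peroxisomes, read 5.56, 6.23 and 6.00 in BCR-positive, 5.54, 6.35 and 6.21 in BCR-negative, 5.10, 5.01 and 5.07 in treated and 5.64, 6.05 and 5.71 in BCR-independent cells. The treated arrays were nearly level while the untreated arrays of tumour 2567 were below those of the other two. The change of -0.97 (SE 0.16, adjusted p = 0.0308) was unequal among the tumours, -0.44, -1.35 and -1.14, and -0.60 once the title mark was a term.

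Bnip3l encodes NIX, a receptor on mitochondria and a hypoxia-inducible gene. It read 8.91, 10.25 and 9.81 in BCR-positive, 9.03, 10.03 and 9.85 in BCR-negative, 8.48, 8.37 and 8.61 in treated and 9.28, 9.45 and 8.75 in BCR-independent cells. No treated array reached an array of another group, but the untreated groups were spread by tumour, and the difference of -1.15 (SE 0.28, adjusted p = 0.0825) did not pass the threshold. It was -0.41 with the title mark as a term.

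Sqstm1, encoding p62, the receptor that autophagy itself degrades, read 7.01, 7.05 and 6.76 in BCR-positive, 6.84, 7.20 and 6.92 in BCR-negative, 7.35, 7.32 and 6.85 in treated and 6.81, 7.18 and 7.07 in BCR-independent cells. The groups overlapped and the difference under CHIR99021 was 0.19 (SE 0.13, adjusted p = 0.561), with 0.51, 0.12 and -0.070 in the tumours.

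The comparison with BCR-positive cells uses the same treated arrays, so it is not independent of the one above. Treated cells were lower than BCR-positive cells in 5 members and higher in 0, while 0.802% of all genes were called and 0.447% were called lower, 58 of 104 called genes (124 of 183 after cyclic loess, when Atg2a was called as well). Atg13 changed by -0.91 (SE 0.11, adjusted p = 0.0143), Wdr45 by -0.88 (SE 0.13, adjusted p = 0.0271) and Nbr1 by -0.87 (SE 0.16, adjusted p = 0.0488). For Tax1bp1 the change was -0.75 (SE 0.12, adjusted p = 0.0350) and for Rb1cc1 -0.69 (SE 0.11, adjusted p = 0.0376). Map1lc3b and Atg2a, the other two called against BCR-negative cells, had differences of -0.50 (SE 0.17, adjusted p = 0.190) and -0.43 (SE 0.086, adjusted p = 0.0585) here. Bnip3l had the largest negative one at -1.17 (SE 0.28, adjusted p = 0.0899), and the largest positive ones were 0.32 for Gabarapl1, 0.26 for Atg3 and 0.25 for Uvrag, none of them called.

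At an unadjusted p under 0.05, 11 members were lower (6.11% of all genes) and 1 higher (9.52%), and the groups did not overlap in 10 members with treated cells lower (4.51%) and 1 with treated cells higher (6.99%). The median difference was -0.10, against 0.029 over all genes, and it was 0.021 once the title mark was a term. All 5 calls were lost without tumour 2646, without tumour 2676, with the title mark as a term, without the tumour term and in a fit of these 2 groups alone, and only Atg13 kept its call without tumour 2567. Over all genes, 104 calls became 4, 15, 8, 7, 0 and 19 in these settings, in that order. With the mark the change of Nbr1 was -0.49, and with the mean of its probe sets that of Rb1cc1 was -0.23 and not called.

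Treated BCR-negative cells and BCR-independent cells both lack the receptor, and none of their arrays carries the title mark. Treated cells were lower in 1 member, Atg13, at -0.72 (SE 0.11, adjusted p = 0.0487), and higher in 0, beside 0.162% of all genes called and 0.131% called lower. Tax1bp1, Atg2a, Wdr45 and Nbr1 differed by -0.74 (SE 0.12, adjusted p = 0.0567), -0.52 (SE 0.086, adjusted p = 0.0683), -0.71 (SE 0.13, adjusted p = 0.0780) and -0.74 (SE 0.16, adjusted p = 0.139). In each of these 5 genes the difference was negative in every tumour. Map1lc3b, Rb1cc1 and Bnip3l differed by -0.49, -0.46 and -0.68, and Atg4c, Gabarapl1 and Atg3 had the largest positive differences, 0.26, 0.18 and 0.17.

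At an unadjusted p under 0.05, 10 members were lower in treated than in BCR-independent cells (5.26% of all genes) and 0 higher (7.05%). The arrays did not overlap in 9 members with treated cells lower (3.92%) and in 1, Atg4c, with treated cells higher (4.27%). The median difference was -0.14, against 0.010 over all genes. The call of Atg13 was lost when any of the 3 tumours was left out. Over all genes, 21 calls became 0, 2 and 12 without tumours 2567, 2646 and 2676.

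**Figure D3:**
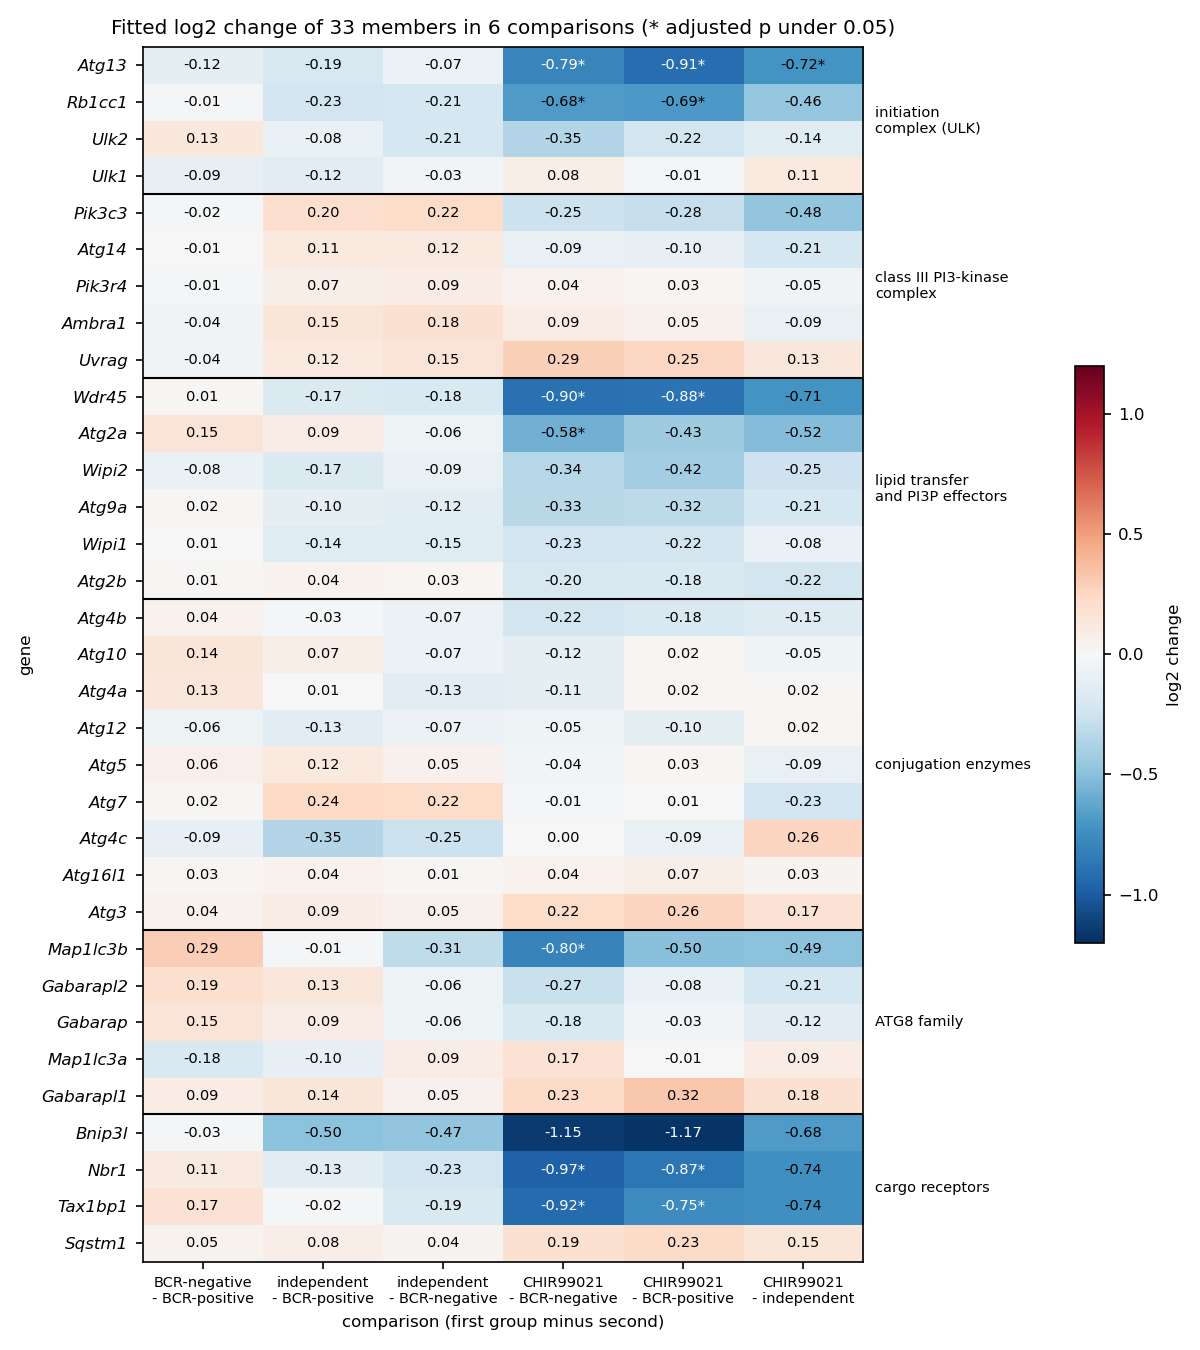
Fitted log2 change of the 33 measured members (rows, by role) in the 6 pairs of groups (columns, first group minus second), with red for higher and blue for lower; an asterisk marks an adjusted p under 0.05. The 3 columns with CHIR99021 hold 7, 5 and 1 asterisks, all on negative values, and the 3 columns without it hold 0.

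Loss of the receptor was not accompanied by a called change in any member. Between untreated BCR-negative and BCR-positive cells 0 of 33 members were called (0.00772% of all genes), 0 had an unadjusted p under 0.05 (3.19%) and 0 had groups that did not overlap (4.51%). The members' median difference was 0.016, against -0.00093 over all genes. The largest positive differences were 0.29 (SE 0.17, adjusted p = 0.999) for Map1lc3b, 0.19 for Gabarapl2 and 0.17 for Tax1bp1, and the largest negative ones -0.18 for Map1lc3a, -0.12 for Atg13 and -0.095 for Atg4c. Map1lc3b was higher in BCR-negative cells in each tumour, by 0.028, 0.31 and 0.54. Sqstm1, Ulk1 and Bnip3l differed by 0.046, -0.094 and -0.026. These spans do not show that levels were equal: the standard errors ran to 0.28 for Bnip3l.

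BCR-independent cells likewise had 0 called members against BCR-negative cells (0.00772% of all genes) and against BCR-positive cells (0.0849%). Against BCR-negative cells 1 member, Atg7, was higher at an unadjusted p under 0.05 (3.6% of all genes), 0 were lower (2.38%), and Atg7 was also the 1 member whose groups did not overlap (4.54%). Atg7 differed by 0.22 (SE 0.077, adjusted p = 0.799), with 0.23, 0.34 and 0.087 in the tumours. The other large differences were 0.22 for Pik3c3 and 0.18 for Ambra1, and -0.47, -0.31 and -0.25 for Bnip3l, Map1lc3b and Atg4c. The difference of Atg4c was -0.011 without tumour 2646 and -0.065 once the title mark was a term, and that of Pik3c3 was 0.0028 without tumour 2676. The 5 class III kinase genes all had positive differences here, of up to 0.22, with 0 called. The members' median was -0.06, against 0.017 over all genes, and 0.052 once the title mark was a term.

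Against BCR-positive cells, which are the reference in another of the comparisons above, Atg7 differed by 0.24 (SE 0.077, adjusted p = 0.392) and Atg4c by -0.35 (SE 0.16, adjusted p = 0.519). They were the members with an unadjusted p under 0.05, 1 higher (5.38% of all genes) and 1 lower (4.24%), and the 2 whose groups did not overlap (7.35%). Bnip3l and Rb1cc1 differed by -0.50 and -0.23, and Pik3c3 and Ambra1 by 0.20 and 0.15. The large value of Pik3c3 came from the array of tumour 2676, and without that tumour its difference was -0.071. That of Ambra1 was 0.020 without tumour 2567. Once the title mark was a term, Rb1cc1 differed by -0.033 and Atg4c by -0.16. With the title mark as a term the difference of Bnip3l became 0.26 against BCR-negative and 0.23 against BCR-positive cells. The members' median was 0.0093, against 0.022 over all genes, and 0.10 once the title mark was a term.

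Set out by tumour, the 7 called members went down in all 3 under CHIR99021. They were picked by a fit that includes these arrays, so their direction in each tumour is not separate support. Of the 33 members, 14 were lower in all 3 tumours (15.8% of all genes) and 3 were higher (25.7%). In tumour 2567, where no array carries the title mark, the median of the 33 members was -0.0081. The changes there were -0.51 for Atg13, -0.58 for Rb1cc1, -0.52 for Atg2a and -0.73 for Wdr45. Map1lc3b, Nbr1 and Tax1bp1 changed there by -0.54, -0.44 and -1.06. In 6 of the 7, all but Tax1bp1, the change in tumour 2567 was the smallest of the 3 in size. Over the 12 arrays, the group accounted for a median of 31.6% of the members' variance and the tumour for 30.5%, against 20.7% and 39.8% over all genes. The group share exceeded the tumour share in 18 of 33 members (54.5%) and in 32.9% of all genes. It was highest for Atg13 at 85.9%, Wdr45 at 83.2%, Atg7 at 82.8% and Tax1bp1 at 80.5%, and lowest for Pik3r4 at 2.36% and Atg4a at 2.71%.

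**Figure D4:**
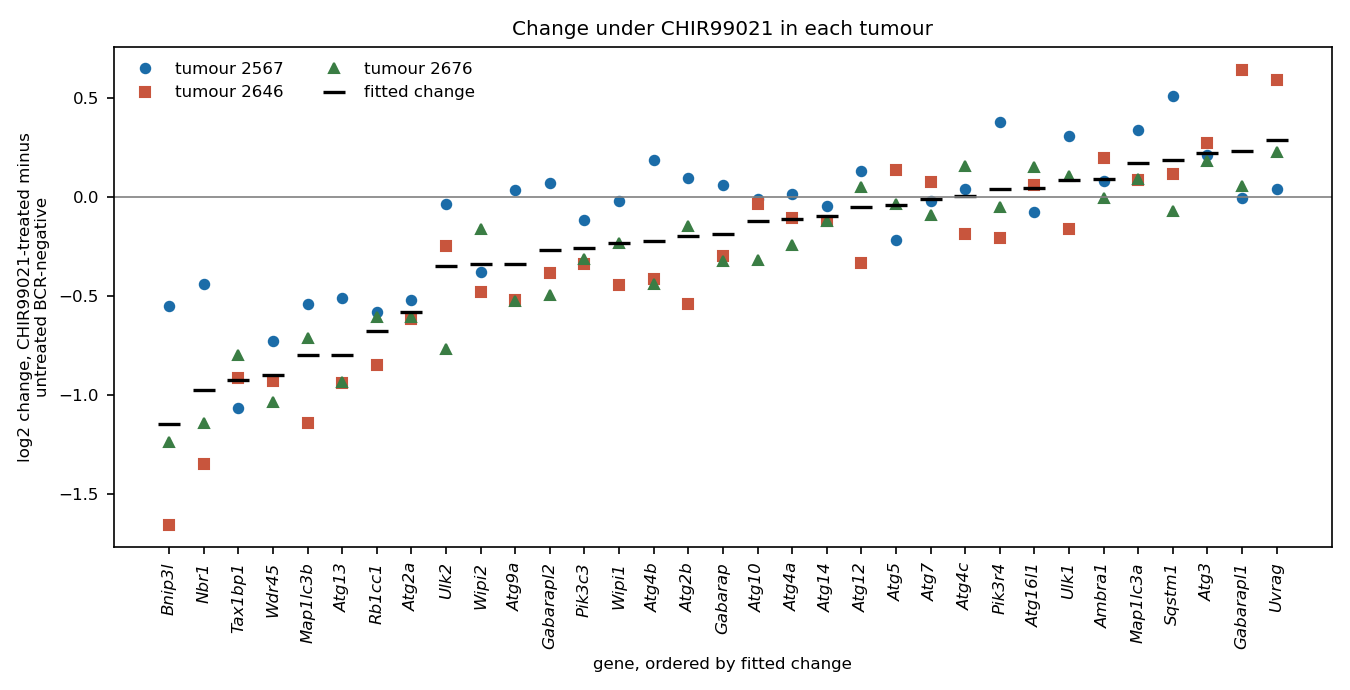
Log2 change of each of the 33 members between CHIR99021-treated and untreated BCR-negative cells (vertical axis) in tumours 2567, 2646 and 2676 (symbols), with the fitted change as a dash and genes ordered by it. In all 3 tumours 14 members lie below 0 (15.8% of all genes): the 7 called members, Bnip3l, Atg10, Atg14, Pik3c3, Ulk2, Wipi1 and Wipi2. Map1lc3a, Atg3 and Uvrag lie above 0 in all 3 (25.7% of all genes).

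Other genes of the pathway were taken from 5 lists of 72 genes, of which 70 were tested. Under CHIR99021, 5 of the 70 were called lower than in untreated BCR-negative cells (0.849% of all genes) and 0 higher, and the median of the 70 was -0.028. Among 11 further core and membrane factors 1 fell, the stress-induced LC3-binding protein gene Trp53inp1, with a change of -2.68 (SE 0.26, adjusted p = 0.00439), and Sh3glb1, a membrane-curving partner of UVRAG, differed by -0.53 (SE 0.12, adjusted p = 0.0627). Of 16 further selective autophagy receptors and their regulators 2 fell: Calcoco1, a receptor for endoplasmic reticulum and Golgi, at -1.16 (SE 0.21, adjusted p = 0.0368), and the mitophagy kinase gene Pink1, at -0.85 (SE 0.15, adjusted p = 0.0338). Once the title mark was a term the change of Calcoco1 was -0.65. Of 9 transcription factors Foxo3 fell by 0.50 (log2, SE 0.087, adjusted p = 0.0338), and Tfeb, whose protein GSK3 and mTORC1 phosphorylate, differed by 0.39 (SE 0.12, adjusted p = 0.128). Among 20 genes of the upstream kinases and mTORC1 control, Mtor changed by -0.72 (SE 0.13, adjusted p = 0.0372) and the stress-responsive Sesn3 differed by -0.71 (SE 0.20, adjusted p = 0.121).

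The 14 fusion and maturation genes had 0 calls by limma. At an unadjusted p under 0.05, 2 were higher (10.4% of all genes) and 2 lower (6.2%). Plekhm1, a tether to the lysosome, was at -0.45 and the SNARE gene Ykt6 at 0.21. Against BCR-positive cells, treated cells were called lower in 2 of the 70 (0.447% of all genes). These were Trp53inp1 at -2.18 (SE 0.26, adjusted p = 0.0143) and Mtor at -0.86 (SE 0.13, adjusted p = 0.0350). Against BCR-independent cells 1 was called lower (0.131% of all genes), Trp53inp1 at -2.22 (SE 0.26, adjusted p = 0.0222). In the 3 comparisons without CHIR99021, 0 of the 70 were called by limma. At an unadjusted p under 0.05, 4 were higher (1.47% of all genes) and 0 lower (1.71%) at receptor loss. In BCR-independent against BCR-negative cells 6 were higher (3.6%) and 5 lower (2.38%). In BCR-independent against BCR-positive cells 6 were higher (5.38%) and 2 lower (4.24%). All calls against untreated BCR-negative cells were lost without tumour 2646 or tumour 2676, where 1 and 10 of all genes were called. Trp53inp1 kept its call without tumour 2567, and also once the title mark was a term, and Calcoco1 kept it without tumour 2567.

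Some probe sets that stand for members sit, in the order of their numbers, among probe sets of another chromosome. They are those used for Atg4a, Bnip3l and Map1lc3b and the only one for Gabarapl2, and which copy of the sequence they read was not tested. The second probe sets of Bnip3l and Map1lc3b, placed among those of the gene's own chromosome, differed by -1.18 and -0.76 under CHIR99021. Of the 7 called members only Map1lc3b was exchanged for its own-chromosome probe set, and it was still called. In a limma fit of all probe sets kept, neither probe set of Map1lc3b was called (adjusted p = 0.0954 and 0.0755). The probe set used for Rb1cc1 lost its calls in that limma fit as well. Its adjusted p was 0.0673 against BCR-negative and 0.0713 against BCR-positive cells.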

How the data were processed

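The values used are the deposited log2 expression signals of 35556 probe sets on 12 arrays, for which the submitters' processing notes name RMA and Affymetrix Power Tools, with no versions. RMA subtracts background, brings all arrays onto one distribution and combines probes into sets, which compresses differences between dim probe sets. Probe sets with 1 gene symbol (21218) were kept when they exceeded the 40th percentile of 3 or more arrays, and each gene took the one with the highest mean, giving 12961 genes. Symbols were updated by gene ID through a RefSeq table (GRCm38.p6). Tumour was a block because each tumour gave 1 array per group. Array deviations from the group means correlated between 0.284 and 0.792 within a tumour and between -0.716 and 0.165 across tumours. Deviations within a group cancel by construction, which lowers the correlations across tumours. In R 4.3.3, limma 3.58.1 (lmFit, eBayes; degrees of freedom 6 residual, 3.41 prior) tested 6 pairs of groups, adjusted by Benjamini-Hochberg over all genes. The number of arrays limits the precision. The script was tested on simulated data.

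The members and gene lists were chosen with earlier results of these data known. Members named with every array are those called in a comparison, the 3 largest rises and falls of each comparison, and Ulk1, Map1lc3b, Gabarapl1, Sqstm1, Bnip3l and Wipi1 (Becn1, also in this rule, had no value to give), and of the other lists the genes called and the 2 with the smallest p under CHIR99021. Alternatives were no block, no filter or a stricter one (60th percentile), an intensity trend, array weights, quantile and cyclic loess normalization, a fit of only 2 groups, averaged probe sets, the title mark as a term, each tumour left out and, chosen after seeing the data, own-chromosome probe sets.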

Additional observations from a re-analysis of the deposited data

How the results depend on the processing

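Numbers of called members are given first. Without the tumour as a replicate block, 0 members were called in treated against BCR-negative cells, 0 against BCR-positive and 0 against BCR-independent cells, where the fit with the block called 7, 5 and 1. Over all genes, 12, 7 and 5 were called without the block and 248, 104 and 21 with it. With only the 2 groups in the fit the called members numbered 2, 0 and 0, beside 109, 0 and 1 of all genes. Once the title mark was a term they numbered 0, 0 and 2 (Atg13 and Nbr1), beside 32, 8 and 33 of all genes. Array weights gave 13 in treated against BCR-negative cells, among 1635 called genes in place of 248, and 3 against BCR-independent cells. In that last comparison a stricter filter and an intensity trend with robust eBayes each gave 0, quantile normalization 2 and cyclic loess 4. With a tumour left out, the numbers ranged from 0 to 1, from 0 to 1 and from 0 to 0 in the 3 comparisons, and from 0 to 0 in each of those without CHIR99021. In the 3 comparisons with CHIR99021 the calls over all genes then ranged from 1 to 17, from 4 to 19 and from 0 to 12.

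The members' median difference at receptor loss was 0.022 with a stricter filter, 0.053 with array weights, 0.0047 after quantile normalization and 0.023 with the mean of probe sets, and ranged from 0.017 to 0.039 with a tumour left out. With the title mark as a term the medians of BCR-independent cells became 0.052 against BCR-negative and 0.10 against BCR-positive cells, and those of treated cells -0.042 and 0.021. With a tumour left out, the median of BCR-independent against BCR-positive cells ranged from -0.028 to 0.024. That of treated against BCR-independent cells ranged from -0.22 to -0.12. The medians of treated against BCR-negative, treated against BCR-positive and BCR-independent against BCR-negative cells ranged from -0.31 to -0.11, from -0.18 to -0.066 and from -0.090 to -0.011.

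Among single members, the difference changed sign for Bnip3l with the title mark as a term (0.26 in BCR-independent against BCR-negative and 0.23 against BCR-positive cells), and for others when 1 tumour was left out. With tumours left out in turn, Atg4c ranged from -0.23 to 0.11 at receptor loss (positive without 2676), Ulk1 from -0.027 (without 2567) to 0.21 in treated against BCR-negative cells, Pik3c3 from -0.071 (without 2676) to 0.36 in BCR-independent against BCR-positive cells, and Gabarapl1 from -0.18 (without 2646) to 0.46 in treated against BCR-independent cells. None of these was called. With fewer arrays or fewer residual degrees of freedom a call needs a larger difference for its spread, and what each other setting changed was not tested. Wipi1, Map1lc3a and Gabarapl1 lay near background, which limits what their differences can show.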
